A study of Danio rerio with 8 samples.

Results

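The warming step from 26 °C to 34 °C was examined in zebrafish (Danio rerio) liver on day 28, in 4 of the 7 RNA samples of the series, 2 biological replicates at each temperature. These samples were chosen by their labelled temperature and day, and 3 of the 8 Agilent 2-colour microarrays set them directly against each other. A 2-colour array binds a Cy5-labelled and a Cy3-labelled RNA sample to the same probes and reads the ratio of their signals. Replicate 1 at 34 °C was hybridised with replicate 1 at 26 °C and, on a separate array, with replicate 2 at 26 °C, while replicate 2 at 34 °C was hybridised with replicate 2 at 26 °C. The other 3 RNA samples, 2 from 18 °C on day 28 and 1 from 26 °C on day 4, joined the remaining arrays into a loop. All samples were total liver RNA from Trizol extractions, labelled under Agilent's protocol (version 5.7), in a series made to select probes for a custom array. The strain, age and sex of the fish, and the number of fish behind each sample, are not given in these sources. The p-values therefore measure only the spread between the replicate RNA samples, those at 18 °C included.

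Fish do not regulate their body temperature, so a warmer tank warms the liver itself and with it every enzyme and membrane in the tissue. Liver cells make most plasma proteins, among them complement, clotting factors and apolipoproteins, they break down fat and amino acids, and in females they make vitellogenin, the egg yolk precursor, when oestrogen acts on them. Heat shock proteins refold damaged proteins in the cytosol, their relatives in the endoplasmic reticulum fold secreted ones, and the proteasome degrades proteins marked with ubiquitin.

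Values are the authors' normalised log2 ratios, turned here to 34 °C over 26 °C, so that 1 means a 2-fold higher signal at 34 °C. The direction of the deposited ratios is not stated. Cy5 over Cy3 was taken as the likely reading, from limma's convention and from titles that put the Cy5 sample before the Cy3 one. This reading was not checked against genes of known response to temperature. Under the reverse reading every signed value below would turn. A fitted value is the difference between the mean levels of the 2 groups after all 8 arrays were fitted together, ± its moderated standard error (SE, n = 2 against 2). A level is the fitted log2 value of 1 RNA sample relative to the mean of all 7.

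Across the 15548 genes with a symbol, 2737 (17.6%) had a positive ratio on all 3 direct arrays and 4255 (27.4%) a negative one, while 8556 did not keep 1 sign. Larger ratios kept their sign more often. Of 160 genes with a ratio of at least 1 in size on every one of the 3 arrays, 151 had 1 sign, 85 positive and 66 negative, and 9 did not. Of 637 genes at 0.5 or more, 579 had 1 sign, 304 positive and 275 negative. The levels of both replicates at 34 °C lay above both at 26 °C in 2657 genes (17.1%) and below both in 4311 (27.7%). No feature passed limma's test on the sample levels at an adjusted p below 0.05, that is 0 of 35434 (0%), where the lowest adjusted p was 0.0818 and 3114 features (8.79%) had an unadjusted p below 0.05. Limma fitted to the arrays directly, which counts arrays that share an RNA sample as independent, called 1372 features, 454 positive and 918 negative. Every gene named below therefore has a measured value that did not pass the main test. Most were chosen for 1 sign on all 3 arrays and for groups that do not overlap, so neither trait is a result about them. Many of the measured values changed when a single sample or array was left out. Leaving out each sample of day 28 or each array in turn, 14 fits in all, turned the sign of 16 of the 122 genes named here, and 67 of the other 106 had a value over 1.5 times smaller in at least 1 fit. The fits without an 18 °C sample all gave the same value per gene. So did those without 1 array, except the array of the replicates numbered 1 or of the replicates numbered 2. That value is the mean ratio of these excepted arrays, so it cannot turn in genes of 1 sign on all 3 arrays. The 14 fits are thus not 14 separate checks. A value that turned or became over 3 times smaller is given with the gene, or among the results by processing at the end. Fits without replicate 2 at 26 °C or without replicate 1 at 34 °C hold no dye term. A change there mixes the loss of the sample with the loss of the dye term, and the 2 were not separated. For rpl35, with a dye term of 0.33, the fitted value of 1.70 became 0.89 and 2.52 in these fits. Its levels were 1.16 and 1.41 at 34 °C and -0.44 and -0.38 at 26 °C. An exact permutation test of 1 gene with 2 samples against 2 cannot give a p below 0.333.

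Only 2 of the direct arrays share no RNA sample, those of the replicates numbered 1 and of the replicates numbered 2. They also differ in dye order. The 34 °C sample was in Cy5 on the replicate 2 array and in Cy3 on both arrays of replicate 1 at 34 °C. Ratios of single arrays, here and below, still hold the dye term, so in them replicate and dye order cannot be told apart. Across genes, which are not independent replicates, the ratios of the 2 arrays that share no RNA sample correlated with a Pearson's r of 0.42. On these arrays 175 genes had ratios of at least 1 in size with the same sign and 15 with opposite signs. The SD of the ratios over genes was 0.395 for the replicate 1 array and 0.437 for the replicate 2 array, and it was 0.544 for the array of replicate 1 at 34 °C with replicate 2 at 26 °C. The replicates themselves differed by an SD of 0.336 at 34 °C and 0.279 at 26 °C, where each value compares 2 single samples. The fitted temperature difference, between means of 2 samples, had an SD of 0.360.

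**Figure D1:**
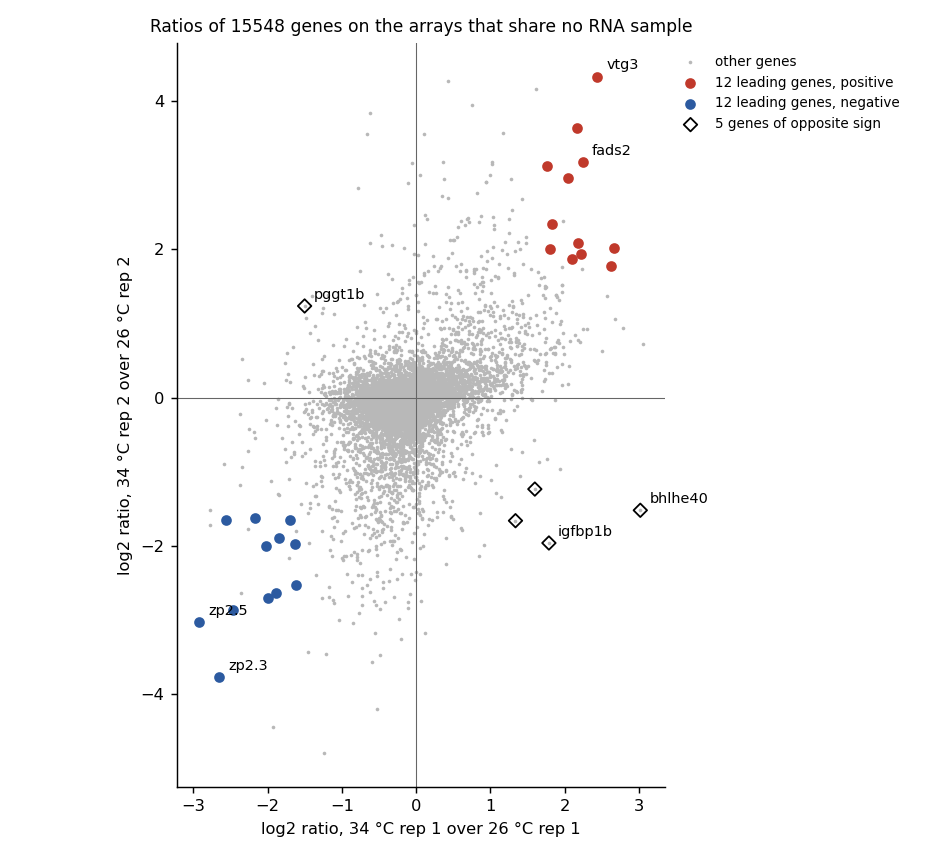
Log2 ratios of 34 °C over 26 °C for 15548 genes on the array of the replicates numbered 1 (x axis) and of the replicates numbered 2 (y axis). Each point is 1 gene, and the 12 leading positive genes, the 12 leading negative genes and 5 genes of opposite sign are marked. The leading genes lie at the ends of the diagonal and vtg3 is the highest, with ratios of 2.44 and 4.33.

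The genes that led the positive side encode proteins of yolk formation, plasma, fat desaturation and energy metabolism. The vitellogenin gene vtg3 had ratios of 2.44 for the replicates 1, 4.33 for the replicates 2 and 3.72 for replicate 1 at 34 °C over replicate 2 at 26 °C. Its levels were 1.76 and 3.32 at 34 °C, against -0.43 and -1.42 at 26 °C. Leading genes were chosen to have 1 sign on all 3 direct arrays and groups that do not overlap. The vtg3 fitted value was 3.47 ± 0.63, or 11.1-fold higher at 34 °C (limma adjusted p = 0.266). The desaturase gene fads2, whose enzyme puts double bonds into polyunsaturated fatty acids, had ratios of 2.25, 3.17 and 2.06 in the same order of arrays. Its levels were 1.82 and 2.24 at 34 °C and -0.61 and -0.62 at 26 °C, so that the replicates lay close together at 26 °C and far below both at 34 °C. The fads2 fitted value was 2.65 ± 0.28, or 6.28-fold (limma adjusted p = 0.180).

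Smaller spreads accompanied the respiratory chain gene cox7a1, a subunit of cytochrome c oxidase. Its ratios were 2.23, 1.94 and 2.28, and its levels were 1.35 and 1.23 at 34 °C against -0.62 and -0.85 at 26 °C. With a fitted value of 2.03 ± 0.17 (limma adjusted p = 0.149), cox7a1 had the smallest SE and the lowest adjusted p of the 12 leading positive genes. The fetuin gene ahsg1, a plasma protein made by hepatocytes, had ratios of 2.18, 2.09 and 2.26 and a fitted value of 2.07 ± 0.35. The liver protease gene nots (nothepsin) reached 3.63 on the replicate 2 array and 2.16 and 2.03 on the other arrays. The other leading positive genes were the alcohol dehydrogenase adh8a (fitted 2.53 ± 0.47), the nucleolar GTPase of ribosome assembly gtpbp4 (2.32 ± 0.22), the malate dehydrogenase mdh1aa (2.00 ± 0.35), the antiproliferative gene btg1 (1.93 ± 0.32), the ribosomal protein paralogue rpl22l1 (2.4 ± 0.35), the tyrosine-degrading dioxygenase hpda (2.21 ± 0.53) and itih3a.1, a plasma protein of the inter-alpha-trypsin inhibitor family (1.67 ± 0.60). The adjusted p-values of these 12 genes ran from 0.149 to 0.539 by limma on sample levels. The itih3a.1 value turned to -0.41 without the array of replicate 2 at 34 °C and replicate 2 at 26 °C, the 1 leading gene of the 24 whose sign turned on leaving out a sample or array. Without the same array hpda was 0.20, btg1 0.54 and gtpbp4 0.63. In all, 10 of the other 23 leading genes were over 1.5 times smaller in at least 1 such fit.

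Genes of the egg led the negative side. The egg envelope glycoprotein gene zp2.3 had ratios of -2.65, -3.77 and -3.57, with levels of -2.09 and -2.59 at 34 °C and 0.19 and 1.38 at 26 °C. Its fitted value was -3.13 ± 0.62, or 8.75-fold lower at 34 °C (limma adjusted p = 0.284). Its relatives zp2.5 (-3.04 ± 0.66), zp2.2 (-2.82 ± 0.60), zp3 (-2.18 ± 0.63) and zp3.1 (-1.73 ± 0.41) were also negative on every direct array. These zona pellucida genes are known from the zebrafish ovary. Other leading negative genes with known roles in eggs or early embryos were npm2b, an egg chromatin chaperone (-2.12 ± 0.54), ctnnb2, a beta-catenin that eggs store for axis formation (-1.77 ± 0.32), mid1ip1l, a maternal gene of the egg cortex (-2.29 ± 0.75), and the mitotic cyclin ccnb2 (-1.71 ± 0.60). The other 3 were the chitinase chia.4 (-2.04 ± 0.47), the lipase lipg (-2.35 ± 0.58) and a2m3h (-1.94 ± 0.51). Their adjusted p-values ran from 0.265 to 0.518. The higher level at 26 °C was in replicate 2 for each of zp2.5, zp2.3, zp2.2, zp3 and zp3.1, for example 1.27 against 0.28 for zp2.5.

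**Figure D2:**
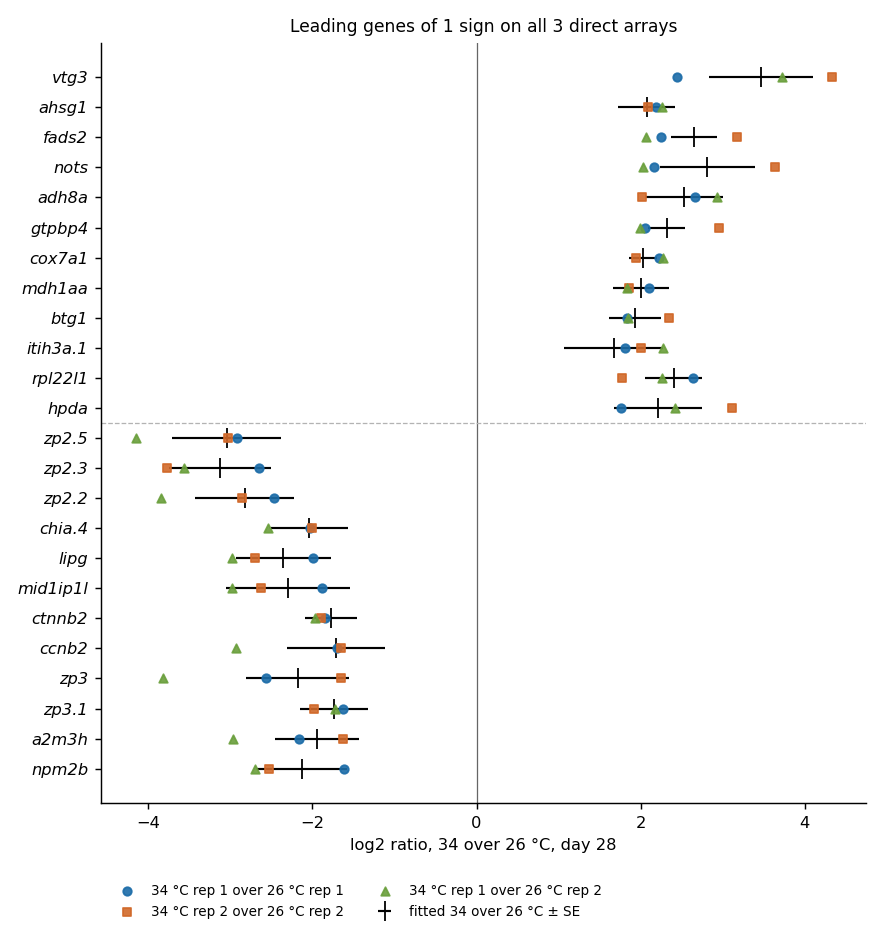
Log2 ratios of 34 °C over 26 °C (x axis) for the 12 leading positive genes (above the dashed line) and the 12 leading negative genes (below it), with 1 symbol per direct array. The black bar is the fitted value ± its SE (n = 2 against 2). The genes were chosen to have ratios on 1 side of 0 on all 3 arrays.

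Marker genes of oocytes and hepatocytes moved with the temperature groups as whole lists. Of 27 oocyte markers measured, 0 were positive and 24 negative on all 3 direct arrays, against 27.4% of genes negative, and their median fitted value was -1.11, against -0.01 for all genes. The 3 that did not keep 1 sign, bmp15, gdf9 and zar1l, named here after their values were seen, were positive on the replicate 2 array. They were negative on both others, which have the opposite dye order. The median level of the oocyte markers was -1.22 and -0.75 in the 34 °C replicates, 0.02 and 0.14 in the 26 °C ones, and 0.77 and 1.62 at 18 °C. Of 27 hepatocyte markers, 22 were positive and 0 negative on all 3 arrays, against 17.6% of genes positive, and their median was 0.78. Their median levels were 1.07 and 0.28 at 34 °C, 0.12 and -0.26 at 26 °C, and -0.43 and -0.95 at 18 °C. Of the hepatocyte markers, 24 also stand in another of the lists. In bulk RNA, fewer cells of a type and less RNA per cell cannot be told apart. Without replicate 1 at 34 °C the oocyte marker median was -0.58, with 21 of 27 fitted values negative, and the hepatocyte marker median 0.39, with 25 of 27 positive. The part of these marker lists in the results on other genes was not tested.

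The exocrine pancreas, which in zebrafish lies scattered along the gut close to the liver, gave markers whose level differed widely between the 26 °C replicates. Of 29 exocrine pancreas markers, 17 were positive and 0 negative on all 3 arrays, against 17.6% and 27.4% of all genes. Their array medians were 0.04 for the replicates 1, 0.94 for the replicates 2 and 2.62 for replicate 1 at 34 °C over replicate 2 at 26 °C. Their median level was -1.13 in replicate 2 at 26 °C against 0.75 in replicate 1, with 0.77 and 0.16 at 34 °C. Replicate 2 at 26 °C was thus the lowest of the 4 samples compared, and the 18 °C replicates lay at -1.25 and -0.32. The chymotrypsin gene ctrb.1 had ratios of 0.43, 4.27 and 2.76, and levels of 0.58 in replicate 1 and -2.38 in replicate 2 at 26 °C. The amylase gene amy2a (fitted 1.68 ± 0.83) and the trypsin-like gene prss59.1 (0.78 ± 0.56) had levels of -1.18 and -1.0 in that replicate, each below the other 3 samples of the comparison. Without that replicate amy2a was 0.20 and ctrb.1 0.45. The fitted list median of 0.83 became -0.11 without replicate 2 at 26 °C. Without that replicate the oocyte marker median was -1.12, with 26 of 27 fitted values negative, and the hepatocyte marker median was 0.25, with 18 of 27 positive.

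**Figure D3:**
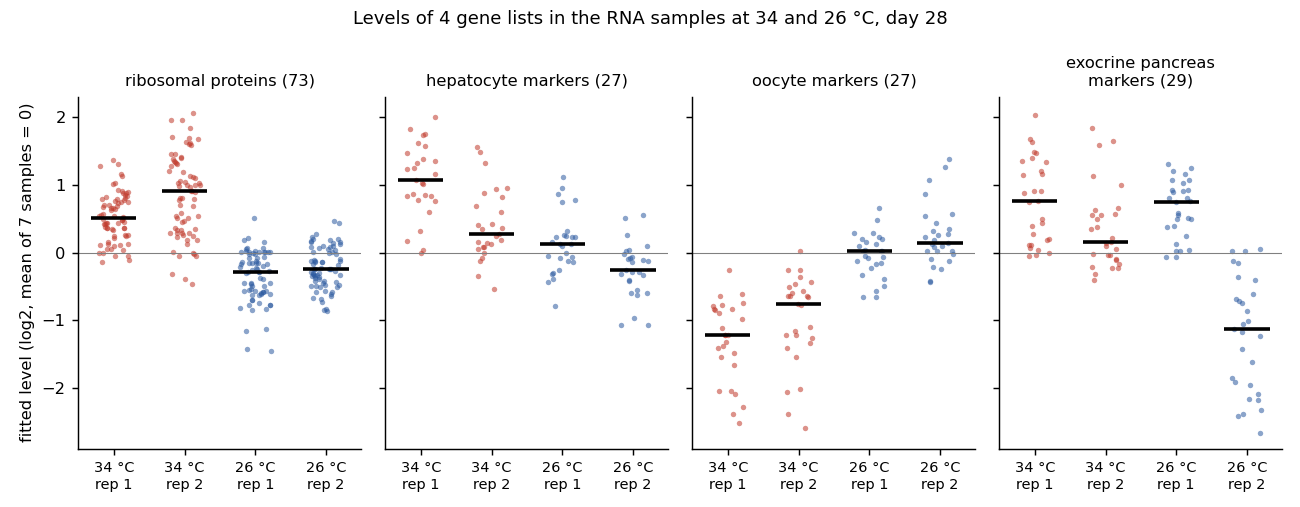
Fitted levels (y axis, log2 with the mean of 7 samples at 0) of the members of 4 gene lists in the 4 RNA samples at 34 °C (red) and 26 °C (blue). Each point is 1 gene and each black line the list's median. The ribosomal protein and oocyte medians separate the temperatures, while the exocrine pancreas median of these 4 samples is low in replicate 2 at 26 °C (-1.13).

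Ribosomal protein genes had the highest fitted median of the 51 lists, though not in every fit. By limma on the arrays directly it was 1.0, below the 1.56 of the exocrine pancreas markers. Of 73 cytosolic ribosomal protein genes, 51 were positive on all 3 arrays and 1 was negative, rpl37, named here after its value was seen (-0.10). Of all genes, 17.6% were positive and 27.4% negative on all 3. The median fitted value was 1.02, and fitted values of members ran from -0.33 to 2.31. The array medians were 0.58, 1.41 and 0.43, so the replicate 2 array, which alone had 34 °C in Cy5, was the highest. Both 34 °C levels lay above both 26 °C levels in 60 of the 73 genes, against 17.1% of all genes. The large-subunit gene rpl30 had levels of 1.36 and 1.95 at 34 °C and -1.16 and -0.15 at 26 °C, with a fitted value of 2.31 ± 0.39 (limma adjusted p = 0.251). For rpl4 the ratios were 1.51, 1.39 and 1.28 (fitted 1.42 ± 0.18), for rpl35 1.2, 2.1 and 1.31 (1.70 ± 0.24), and for the stalk protein gene rplp1 1.25, 2.22 and 1.19 (1.64 ± 0.38). Without replicate 2 at 26 °C the list median was 0.31, with 47 of 73 fitted values positive, below the 0.73 of vitellogenins and the 0.61 of mitochondrial fatty acid oxidation. Without replicate 1 at 34 °C it was 1.74, with 64 of 73 positive.

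Translation factors and ribosome biogenesis genes had members on both sides. Of 74 initiation and elongation factor genes, 27 (36.5%) were positive and 19 (25.7%) negative on all 3 arrays, against 17.6% and 27.4% of all genes, with a median of 0.02. Ratios of at least 0.5 in size on all 3 arrays were positive in 13 of the 74 and negative in 4. Of all 15548 genes, 304 were positive and 275 negative at that size. The difference between these lists and the ribosomal proteins was not tested. The eif3 subunit gene eif3d had ratios of 1.31, 1.23 and 1.56 (fitted 1.44 ± 0.19), its partner eif3s10 1.71, 1.39 and 1.78 (1.53 ± 0.35), and eif5a 1.48, 2.17 and 2.15 (1.69 ± 0.46, but 0.50 without the array of the replicates 2). The elongation factor gene eef1a1l3 had ratios of -1.24, -4.79 and -3.32 (fitted -3.0 ± 1.07), and its level was 1.91 in replicate 2 at 26 °C against -0.22 in replicate 1. Without that replicate 2 its value was -0.91. Of 38 ribosome biogenesis genes, 6 (15.8%) were positive and 13 (34.2%) negative. The nucleolar helicase gene ddx21 was on the positive side (1.86 ± 0.40) with gtpbp4, and dkc1, the pseudouridine synthase of nucleolar RNA, on the negative side (-1.28 ± 0.20).

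Genes of protein breakdown and of RNA splicing had negative medians of modest size. Of 45 proteasome genes, 17 were negative and 1 was positive on all 3 arrays, with a median of -0.23. The negative share was above the 27.4% of all genes, and the array medians were -0.42, -0.05 and -0.31. The core subunit gene psma3 had ratios of -0.84, -1.76 and -1.03, and levels of -0.02 and -0.80 at 34 °C against 0.87 and 0.96 at 26 °C. The ATPase subunit gene psmc4 had a fitted value of -1.10 ± 0.24. Of 37 ubiquitin activation and conjugation genes, 17 were negative and 1 positive (median -0.18), among them the conjugating enzymes ube2nb (-0.81 ± 0.22) and ube2z (-0.75 ± 0.11). Of 77 spliceosome, hnRNP and SR protein genes, 30 were negative and 9 positive (median -0.18). The core particle gene snrpb had a fitted value of -1.90 ± 0.54 and the SR protein gene srsf5a one of 1.2 ± 0.14, so that members of 1 list lay far apart. Leaving out replicate 1 at 34 °C gave a proteasome median of 0.01, and leaving out replicate 2 at 26 °C one of -0.54. In the same order the ubiquitin list had medians of -0.02 and -0.11, and the splicing list -0.04 and -0.30. Without replicate 1 at 34 °C, 20 of 37 ubiquitin and 44 of 77 splicing genes had negative fitted values.

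Chaperone genes had medians slightly below 0 and members of either sign. Of 39 cytosolic heat shock and chaperonin genes, 7 (17.9%) were positive, near the 17.6% of all genes, and 15 (38.5%) negative, against 27.4% of all genes, with a median of -0.09 that became 0.04 without replicate 2 at 34 °C. The co-chaperone gene stip1, whose protein links Hsp70 to Hsp90, had ratios of -1.46, -3.42 and -1.66. Its levels were -0.83 and -2.16 at 34 °C and 0.84 and 1.05 at 26 °C (fitted -2.44 ± 0.54, limma adjusted p = 0.307). The Hsp70 gene hsp70.3 (-1.54 ± 0.39) and the Hsp110-family gene hspa4a (-1.28 ± 0.25) were negative on all 3 arrays. The constitutive Hsp90 gene hsp90ab1 was positive on them (0.83 ± 0.31), but -0.35 without replicate 1 at 34 °C and -0.31 without the array of the replicates 2. Its lowest probe was at -0.77 on the array of replicate 1 at 34 °C and replicate 2 at 26 °C. Of 37 endoplasmic reticulum chaperone and unfolded protein response genes, 18 (48.6%) were negative and 5 (13.5%) positive (median -0.21). The secreted stress factor gene manf had ratios of -1.34, -1.33 and -0.74, the transcription factor gene xbp1 -0.55, -1.48 and -1.25, and the co-chaperone gene dnajb9b -0.95, -0.30 and -0.88. These 3 genes were named from those with both 34 °C levels below both at 26 °C. That held for 15 of the 37 genes, against 27.7% of all genes.

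Of 8 genes known from textbooks for their response to temperature, 1 was positive and 4 were negative on all 3 arrays. Of all genes, 17.6% were positive and 27.4% negative. The collagen chaperone gene serpinh1b had ratios of -0.61, -0.30 and -0.69 and a fitted value of -0.53 ± 0.09 (limma adjusted p = 0.251), with levels of -0.41 and -0.54 at 34 °C and 0.16 and -0.04 at 26 °C. The inducible Hsp70 gene hsp70l had ratios of -1.75, 0.24 and -0.80, and its fitted value of -0.73 ± 0.31 became 0.20 without replicate 1 at 34 °C. The endoplasmic reticulum chaperone gene hspa5 had ratios of -1.11, -0.93 and -2.21, yet its levels overlapped, with -0.54 and 1.03 at 26 °C around -0.45 in replicate 2 at 34 °C, and its fitted value of -0.88 ± 0.54 became 0.68 without replicate 1 at 34 °C. The cold-inducible RNA-binding genes differed, since cirbpb was positive on all 3 arrays (0.38, 0.64 and 0.95, fitted 0.45 ± 0.36) and cirbpa was not (-0.71, 0.69 and -0.70, fitted 0.15 ± 0.32). Without replicate 2 at 26 °C these became -0.26 for cirbpb and -0.96 for cirbpa. Under the assumed direction of the ratios, the inducible hsp70l was thus negative and the cold-inducible cirbpb and cirbpa positive in the main fit. These genes were not used to check that direction. The constitutive Hsp70 gene hspa8 (0.16 ± 0.36, and -0.55 without the array of the replicates 2), the inducible Hsp90 gene hsp90aa1.1 (-0.04 ± 0.13, and 0.04 without replicate 2 at 34 °C) and the desaturase gene scd (-0.06 ± 0.21, and -0.019 without replicate 2 at 26 °C) had fitted values smaller than their SEs. Probes of hspa8 and of hsp90aa1.1 disagreed in sign. Of 12 cold-inducible and high mobility group genes, 4 (33.3%) were positive and 1 (8.3%) negative on all 3 arrays, against 17.6% and 27.4% of all genes. Among them were ybx1, an RNA-binding protein (1.48 ± 0.29), and the negative hmgb3b, a chromatin protein (-1.04 ± 0.34). Single ybx1 probes had fitted values from 0.016 to 2.19.

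**Figure D4:**
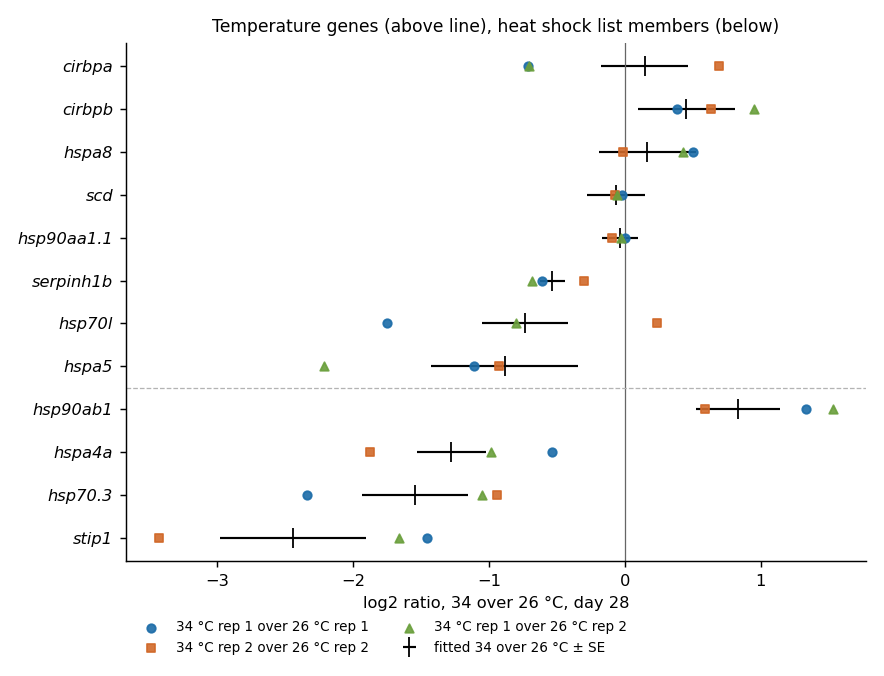
Log2 ratios of 34 °C over 26 °C (x axis) for the 8 textbook temperature genes (above the dashed line) and 4 members of the cytosolic heat shock list (below it), with 1 symbol per direct array and the fitted value ± SE (n = 2 against 2) as a black bar. The arrays lie on both sides of 0 for cirbpa, hspa8 and hsp70l, and between -3.42 and -1.46 for stip1.

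Genes for proteins that hepatocytes secrete were mostly positive, together with the hepatocyte markers. Of 28 coagulation and fibrinolysis genes, 21 were positive and 0 negative on all 3 arrays, against 17.6% and 27.4% of all genes, with a median of 0.70. Of 29 complement genes, 16 were positive and 0 negative, with a median of 0.51. The clotting factor gene f10 had ratios of 1.25, 0.93 and 1.47, and levels of 1.15 and 0.76 at 34 °C against -0.26 and -0.19 at 26 °C (fitted 1.18 ± 0.14). Single f10 probes had fitted values from 0.14 to 1.70. Factor f9a had a fitted value of 1.68 ± 0.35 and f7i one of 1.51 ± 0.43, which without the array of the replicates 2 became 0.048 and -0.08. The central complement gene c3a.1 had ratios of 1.16, 1.99 and 2.1 (1.63 ± 0.30), vtna, vitronectin, 1.74, 1.48 and 2.06 (1.6 ± 0.28), and the pore component gene c8a 1.19, 0.96 and 1.31 (1.19 ± 0.45). Of 24 acute phase, iron and copper genes, 11 were positive and 2 negative (median 0.25). The 11 include ftr82, of the fish TRIM family rather than an iron or acute phase gene, and its leave-out values are not given. The hepcidin gene hamp, a regulator of iron uptake, had ratios of 2.21, 0.74 and 2.6, and ambp, a plasma protein precursor, 0.95, 1.84 and 4.03. Without replicate 2 at 26 °C the medians were 0.20 for coagulation, 0.14 for complement and 0.04 for acute phase genes. Fitted values were then positive in 24 of 28, 19 of 29 and 14 of 24 genes. Without replicate 1 at 34 °C the medians were 0.35, 0.25 and 0.36, with 20 of 28, 18 of 29 and 18 of 24 positive. With the arrays scaled to equal spread the medians were 0.48, 0.045 and 0.059 in the same order.

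Vitellogenins and oestrogen response genes had a positive median in the samples where the oocyte markers had a median of -1.11. Of 10 genes in this list, 7 were positive and 0 negative on all 3 arrays, against 17.6% and 27.4% of all genes, with a median of 0.66. The vitellogenin gene vtg5 had levels of 1.73 and 3.55 at 34 °C and -0.41 and -0.08 at 26 °C (2.88 ± 0.64), and vtg4 levels of 1.11 and 2.2 against 0.08 and -0.56 (1.89 ± 0.42). Single vtg4 probes had fitted values from 0.25 to 3.54. In vtg3, vtg4 and vtg5 alike, replicate 2 at 34 °C was the highest of the 4 samples. The oestrogen receptor gene esr1 had ratios of 0.75, 0.42 and 1.36 (0.72 ± 0.12, limma adjusted p = 0.243), and in it replicate 1 at 34 °C was the highest. Leaving out replicate 1 at 34 °C gave a list median of 0.20, and leaving out replicate 2 at 26 °C one of 0.73.

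Fat metabolism showed positive values for oxidation and transport, and divided ones for synthesis. Of 28 mitochondrial fatty acid oxidation genes, 20 were positive and 3 negative on all 3 arrays (median 0.43), against 17.6% and 27.4% of all genes. The acyl-CoA dehydrogenase gene acads had ratios of 0.64, 0.68 and 0.65, close together, with levels of 0.40 and 0.76 at 34 °C against -0.41 and 0.0046 at 26 °C (fitted 0.78 ± 0.30). The acyl-CoA synthetase gene acsl4a had a fitted value of 0.68 ± 0.24. Of 31 peroxisome genes, 15 were positive and 2 negative (median 0.14). The peroxisomal bifunctional enzyme gene ehhadh had ratios of 1.53, 0.94 and 1.47 (1.27 ± 0.13, limma adjusted p = 0.175), and the sterol carrier and thiolase gene scp2a 1.97, 1.51 and 1.15 (1.73 ± 0.27). Of 29 apolipoprotein and lipid transport genes, 15 were positive and 3 negative (median 0.40), among them lipca, hepatic lipase (2.34 ± 0.48), and fabp3, a fatty acid-binding protein (1.05 ± 0.24, but 0.21 without replicate 2 at 26 °C). Without replicate 2 at 26 °C the median for mitochondrial fatty acid oxidation was 0.61, with 27 of 28 fitted values positive (0.10 without replicate 1 at 34 °C), and that for lipid transport was 0.20, with 19 of 29.

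Of 31 genes of fatty acid synthesis, desaturation and elongation, 9 (29.0%) were positive and 9 (29.0%) negative (median -0.04). Of all genes, 17.6% were positive and 27.4% negative. Beside fads2, the elongase gene elovl2 had ratios of 1.97, 1.51 and 2.46 (1.75 ± 0.38) and the dehydratase gene hacd2, of the same elongation cycle, 1.67, 0.59 and 1.66 (1.21 ± 0.31). These 3 genes act on long or polyunsaturated chains. The elongase gene elovl7a was on the other side, with ratios of -1.21, -0.42 and -1.93 (-0.98 ± 0.47). Of 23 cholesterol genes, 6 (26.1%) were positive and 11 (47.8%) negative (median -0.06), the reductase gene dhcr7 being positive (0.80 ± 0.18, but 0.18 without replicate 1 at 34 °C). Of 30 membrane phospholipid genes, 8 (26.7%) were positive and 12 (40%) negative (median -0.02). The positive ones included chpt1, which completes phosphatidylcholine (1.82 ± 0.27), and the lipase-family gene pla2g12b (1.61 ± 0.44).

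Energy and amino acid metabolism had single genes with large positive values in lists whose medians were near 0. Of 85 respiratory chain and ATP synthase genes, 31 (36.5%) were positive and 11 (12.9%) negative (median 0.10), against 17.6% and 27.4% of all genes. The cytochrome c oxidase subunit gene cox5b2 had a fitted value of 0.95 ± 0.36 (0.21 without the array of the replicates 2), while the cytochrome c gene cycsb had one of -1.19 ± 0.22. Of 26 citric acid cycle genes, 12 (46.2%) were positive and 5 (19.2%) negative (median 0.02). The succinyl-CoA ligase subunit genes suclg2 (1.78 ± 0.38) and suclg1 (1.35 ± 0.39) stood on the same side. Of 70 mitochondrial carrier, channel and import genes, 14 (20.0%) were positive and 20 (28.6%) negative (median 0.0038), both near the shares of all genes. The outer membrane channel paralogues were divided, since vdac3 had ratios of 0.71, 1.03 and 0.88 (0.92 ± 0.05, limma adjusted p = 0.0818) and vdac1 ratios of -1.53, -0.60 and -2.39 (-1.15 ± 0.51, but -0.30 without replicate 1 at 34 °C). The third paralogue, vdac2, had a fitted value of 0.76 ± 0.36 that became -0.04 without the array of the replicates 2.

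Of 50 glycolysis, gluconeogenesis and glycogen genes, 17 (34%) were positive and 12 (24%) negative (median 0.01), against 17.6% and 27.4% of all genes. The liver pyruvate kinase gene pklr had levels of 0.99 and 2.07 at 34 °C and -1.49 and -0.24 at 26 °C (2.39 ± 0.63), and pgm1, phosphoglucomutase, had a fitted value of 1.57 ± 0.80. Of 52 amino acid breakdown and urea cycle genes, 23 (44.2%) were positive and 9 (17.3%) negative (median 0.09). The tryptophan pathway gene acmsd had ratios of 2.24, 1.73 and 2.67 (2.04 ± 0.22, limma adjusted p = 0.185), glud1b, glutamate dehydrogenase, 1.74, 1.34 and 1.80 (1.47 ± 0.23), and agxta, an alanine-glyoxylate aminotransferase, 1.74, 1.5 and 1.78 (1.48 ± 0.40, but 0.26 without the array of the replicates 2). Of 33 methionine cycle and one-carbon genes, 10 (30.3%) were positive and 6 (18.2%) negative (median 0.02). The folate enzyme gene ftcd had ratios of 1.72, 1.63 and 1.62 (1.64 ± 0.17), and the mitochondrial folate carrier gene slc25a32a 2.31, 0.93 and 2.33 (1.63 ± 0.18, but 0.54 without replicate 1 at 34 °C).

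Detoxifying enzymes and hormone genes had many members positive on all 3 arrays, with list medians below 0.1. Of 71 cytochrome P450 genes, 34 (47.9%) were positive and 9 (12.7%) negative (median 0.08), and of 53 conjugation genes, 26 (49.1%) were positive and 3 (5.7%) negative (median 0.08), against 17.6% and 27.4% of all genes. These differences from all genes were not tested. The sterol hydroxylase gene cyp8b1.1, of bile acid synthesis, had ratios of 0.88, 0.90 and 1.16 (0.80 ± 0.21), a value that became -0.0039 without the array of the replicates 2. The glutathione transferase gene gstz1 (1.35 ± 0.40) and the glucuronosyltransferase gene ugt1a7 (1.32 ± 0.65, but 0.44 without replicate 2 at 26 °C) were positive on all 3. Of 38 antioxidant genes, 13 were positive and 7 negative (median 0.05), with gpx1a, glutathione peroxidase (1.53 ± 0.29), and txnb, thioredoxin (1.22 ± 0.16), among the positive ones. Of 42 genes of growth factors, hormone receptors and stress hormones, 22 (52.4%) were positive and 0 negative (median 0.09). The growth factor gene igf2a had ratios of 1.93, 0.74 and 2.55 (1.39 ± 0.31), its binding protein gene igfbp2a 1.51, 1.0 and 1.93 (1.26 ± 0.35), the deiodinase gene dio2, which activates thyroid hormone, 1.39, 0.74 and 2.18 (1.14 ± 0.45), and the cortisol-inactivating hsd11b2 1.01, 1.41 and 2.37 (1.17 ± 0.55). Without replicate 1 at 34 °C igf2a was 0.20 and hsd11b2 0.22. Without replicate 1 at 34 °C the P450 median was -0.01.

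**Figure D5:**
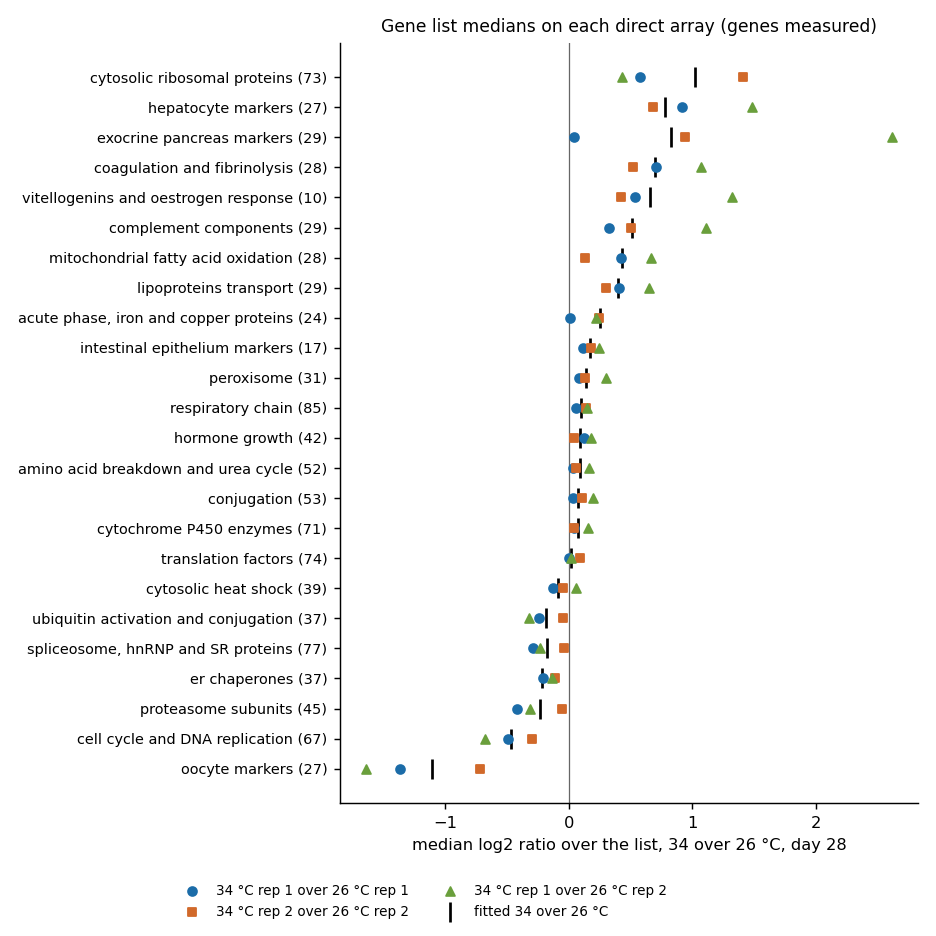
Median log2 ratio of 34 °C over 26 °C (x axis) for 24 gene lists, with the number of genes measured in brackets, 1 symbol per direct array and a black tick for the fitted median. Ribosomal proteins have the highest fitted median (1.02) and oocyte markers the lowest (-1.11), and the exocrine pancreas arrays are the most widely spread (0.04 to 2.62).

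Cell division genes were negative together with the oocyte markers. Of 67 cell cycle and DNA replication genes, 50 were negative on all 3 arrays and 1 was positive, cdk6, named here after its value was seen (0.05). Of all genes, 27.4% were negative and 17.6% positive. The list median was -0.47, and the array medians were -0.49, -0.30 and -0.68. The replication helicase gene mcm2 had levels of -1.40 and -0.68 at 34 °C and -0.07 and 0.48 at 26 °C (-1.25 ± 0.33), and the polymerase subunit gene pole2 levels of -1.02 and -0.88 against 0.19 and 0.70 (-1.39 ± 0.25). The mitotic cyclin gene ccnb1, which is also among the oocyte markers, had ratios of -1.36, -0.92 and -1.92 (-1.19 ± 0.47). Germ cell genes of the testis list that ovaries express too were on the same side, with dnd1, a germ plasm RNA-binding protein, at -1.33 ± 0.14 and piwil1, of the small RNA pathway that silences transposons, at -1.0 ± 0.07 (limma adjusted p = 0.178 and 0.115). Of 22 genes of that list, 11 were negative and 1 positive (median -0.11). Without replicate 2 at 26 °C the cell cycle median was -0.48, with 57 of 67 fitted values negative, and without replicate 1 at 34 °C it was -0.18, with 43 of 67.

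Of 101 Rab GTPase and vesicle coat genes, 30 (29.7%) were negative and 10 (9.9%) positive (median -0.02), against 27.4% and 17.6% of all genes. The Rab gene rab1aa, of transport to the Golgi, stood apart on the positive side (1.21 ± 0.26). On the negative side was rab5if (-1.01 ± 0.18), a Rab5 interacting factor in this list that is not itself a Rab GTPase. The lists for DEAD-box helicases and RNA decay (32 of 79 negative, 6 positive), adhesion and matrix (16 of 98 and 18), clock genes (8 of 37 and 4), apoptosis and p53 (10 of 27 and 6), hypoxia (6 of 29 and 4) and immune signalling (7 of 36 and 9) had medians between -0.11 and 0.03. Single members still had sizeable ratios of 1 sign on the 3 arrays. They were 1.25, 2.41 and 2.46 for b2m, the light chain of class I histocompatibility molecules (1.98 ± 0.24), and 1.19, 1.11 and 1.34 for the mitophagy receptor gene bnip3 (1.07 ± 0.23). The p53 targets ccng1 (0.84 ± 0.34) and sesn1 (0.85 ± 0.13) were positive on each array. Markers of other cells were fewer. Of 17 intestinal epithelium markers, 11 were positive and 0 negative (median 0.17), and 5 of them are also in the lipid transport list. Medians lay between -0.0038 and 0.09 for markers of endocrine pancreas, erythrocytes, macrophages and neutrophils, lymphocytes, biliary cells, stellate cells, endothelium and skeletal muscle.

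The 34 °C and 18 °C groups were both compared with the same 26 °C samples, so values for the 2 steps are not independent and are only set side by side. For elovl2 the fitted value was 1.75 at 34 °C over 26 °C and -2.17 at 18 °C over 26 °C, and for rab1aa it was 1.21 and -2.16. For acsl4a it was 0.68 and -1.61. In these 3 genes the value at 18 °C was the larger in size. For vtg3 the values were 3.47 and 0.30, for cox7a1 2.03 and 0.26, for acmsd 2.04 and -0.07, and for rpl22l1 2.4 and -0.06. In these 4 genes the 18 °C samples lay near the 26 °C ones and the 34 °C samples apart. For stip1 the values were -2.44 and 0.03, and for ctnnb2 -1.77 and 0.16. Of the 12 leading negative genes, ctnnb2 had the smallest value at 18 °C over 26 °C. All 12 were positive there, up to 1.26 for zp3, which was -2.18 at 34 °C over 26 °C. No set rule chose the genes put side by side here.

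Some genes had large ratios of opposite sign on the arrays that share no RNA sample, which also have opposite dye order. The clock-linked repressor gene bhlhe40 had a ratio of 3.02 for the replicates 1 and -1.52 for the replicates 2. The growth factor binding protein gene igfbp1b had 1.79 and -1.96, the apolipoprotein gene apoc2 1.34 and -1.66, the somatostatin gene sst2 1.6 and -1.23, and the prenyltransferase subunit gene pggt1b -1.5 and 1.23. The levels of bhlhe40 were 2.15 and 0.15 at 34 °C and -0.33 and 0.78 at 26 °C, so the groups overlapped. In igfbp1b the replicates differed in opposite directions, with 0.77 and -1.52 at 34 °C and -1.38 and 0.75 at 26 °C. Their fitted values ran from -0.45 ± 0.34 for pggt1b to 0.92 ± 0.76 for bhlhe40, and each turned in sign in at least 1 fit without a sample or array.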

How the data were processed

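Each array gave 1 log2 ratio per probe for 43603 probes, deposited as normalised by the authors with limma, per the submitters' processing notes. Its version, the background correction, the spot filters and the log base are not given there, and limma's log2 was assumed. No channel signals were used, so a probe near background looks like one at a ratio of 0. The number of arrays limits the precision.

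Platform annotation and a RefSeq gene table (assembly GRCz12tu) gave 23717 probes 1 symbol, 0 several and 19886 none. Probes of 1 symbol were averaged, which left 35434 features. For 2634 of the 6107 genes measured by more than 1 probe, the probes had fitted values of both signs.

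Per feature, a least-squares fit of the 8 ratios on 7 RNA samples and a dye term left 1 residual degree of freedom. Limma 3.58.1 (R 4.3.3) then compared 4 groups on the sample levels, two-sided, with Benjamini-Hochberg adjustment over all features. The steps were tested on simulated data. Errors of levels that share an array are correlated, which this step ignores.

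Named genes were the 12 per direction with the largest smallest ratio over the 3 arrays, among symbols with 1 sign on all arrays, in the fit and over their probes, and with groups that did not overlap. Up to 4 members per list by the same order, 8 temperature genes and 5 genes of opposite sign were added. The 51 lists and the samples were chosen with earlier results of these data known, so their directions are not independent evidence. No sequences or coordinates are given.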

Additional observations from a re-analysis of the deposited data

How the results depend on the processing

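The count of called features stayed at 0 with single probes, no dye term, equalised array spreads, the 4 samples alone, the 3 direct arrays alone, named genes alone, features of at least 0.1 on any array, and the replicate block (0 called, lowest adjusted p 0.0982). It was 1372 by limma on the arrays directly, where 21 of the 24 leading genes were called with adjusted p-values of 0.0062 to 0.0396, and the other 3 had 0.0507 to 0.0617. The 24 genes were chosen for large ratios on these same arrays, so their calls are not independent evidence. Leaving out 1 sample or array gave 0 to 2 calls. The 2 came without the array of replicate 1 at 34 °C and replicate 2 at 26 °C, on probes with no symbol here. The lone sample of a group cut to 1 was taken to spread as other groups do. Replicate numbers were not taken to pair samples in the main test. The replicate differences correlated across genes at 0.41 between 34 and 26 °C, and at -0.13 and -0.15 with 18 °C. The cause of the 0.41 was not tested, and the replicate block above allows for a shared replicate effect.

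Features positive and negative on all 3 arrays were 6230 and 6935. They were 1583 and 2327 with ratios of at least 0.1 in size, 450 and 333 at 0.5, and 143 and 76 at 1, by the filter's construction. On the arrays that share no RNA sample, which asks for 2 equal signs in place of 3, 9707 were positive. Single probes and ratios less the dye term moved neither count by over 1.5 times.

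Without 1 sample or array, 106 of the 122 named genes kept their sign in all 14 fits. Many of these fits gave the same value, which cannot turn in genes chosen for 1 sign on all 3 direct arrays. The count is therefore not a test of stability. The lowest and highest values of the other 16 were -0.41 and 2.14 for itih3a.1, -0.35 and 1.71 for hsp90ab1, -0.042 and 1.01 for vdac2, -0.077 and 1.99 for f7i, -0.0039 and 1.03 for cyp8b1.1, -1.11 and 1.15 for igfbp1b, -1.51 and 3.36 for bhlhe40, -1.82 and 1.1 for apoc2, -1.57 and 1.48 for sst2, -3.26 and 1.15 for pggt1b, -0.96 and 1.69 for cirbpa, -0.26 and 0.79 for cirbpb, -0.063 and 0.060 for hsp90aa1.1, -0.55 and 0.25 for hspa8, -2.08 and 0.20 for hsp70l, and -1.75 and 0.68 for hspa5. With equalised array spreads igfbp1b was 1.31, apoc2 0.32 and cirbpa -0.072. By limma on the arrays apoc2 was 0.23 and cirbpa -0.090, and cirbpa was -0.011 on the 3 direct arrays alone. The highest probe of hsp90aa1.1 was at 0.081 and the lowest of hspa8 at -0.13. The cause of these changes was not tested.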
